A study of Mus musculus with 7 samples.

Results

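Transcripts of the proteasome were followed in macrophages sorted from injured mouse nerve 5, 14 and 28 days after repair. Its genes were taken by symbol, as every gene named Psma, Psmb, Psmc, Psmd, Psme, Psmf or Psmg followed by a number, which gave 48 genes of the 23361 in the table. Of these, 47 were among the 12858 genes that passed the expression filter and were tested. The comparison of main interest set Psmb8, Psmb9 and Psmb10, the catalytic subunits of the immunoproteasome, against Psmb5, Psmb6 and Psmb7, the constitutive subunits whose places they take.

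All animals were wild-type BALB/cJ mice, an inbred strain, whose left sciatic nerve was cut and repaired at once inside a conduit, and no uninjured or untreated group was part of the comparison. Macrophages came from the tissue bridge that grew within the conduit and were sorted as cells positive for F4/80, CD14, CD11b and CD16/32 and negative for lineage markers of other cells. Day 5 had 3 libraries and days 14 and 28 had 2 each, described as independent biological replicates. The age and sex of the animals, and whether a library holds 1 mouse or several, were not established here. RNA with a polyA tail was sequenced, and levels are given as FPKM, fragments scaled to transcript length and library size, which may be compared between genes because of the scaling to length.

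The proteasome degrades proteins that carry ubiquitin chains and so supplies most of the peptides that MHC class I molecules show on the cell surface. Its 20S core is a barrel of outer rings of alpha subunits and inner rings of beta subunits, of which Psmb5, Psmb6 and Psmb7 hold the active sites, and the 19S cap binds, unfolds and feeds in the substrates. In cells exposed to interferon-gamma, and constitutively in many immune cells, newly built cores take up Psmb8 in place of Psmb5, Psmb9 in place of Psmb6 and Psmb10 in place of Psmb7, which shifts the peptides made. The PA28 activator of Psme1 and Psme2 is induced by the same cytokine.

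The libraries held 18027190 to 35247116 fragments assigned to genes. The 8 macrophage markers listed summed to 15863 to 21865 FPKM, most of it from Lyz2, and the lowest of them, Mertk, was at 19.99 to 30.3 FPKM. Of the 8, 6 were lower and 2 higher on day 28 than on day 5, and 3 were called lower, against 7.51% of all genes. The 3 called were Fcgr1 (log2 -1.73, edgeR adjusted p = 0.00210), Emr1, which encodes the sorted antigen F4/80 (log2 -1.01, edgeR adjusted p = 0.00650), and Cd14, also used in the sort (log2 -0.76, edgeR adjusted p = 0.0145). Itgam, which encodes the sorted antigen CD11b, was lower but not called (log2 -0.45, edgeR adjusted p = 0.105). In contrast, the 7 T and NK cell markers in the table summed to 0.435 to 1.54 FPKM. Marker sums of other cells differed between days. The 6 fibroblast markers summed to 27.8 to 72.1 FPKM on day 5, to 222 and 80.2 in the day 14 libraries and to 34.9 and 56.1 on day 28. The 7 neutrophil markers summed to 260 to 289 FPKM on day 5, 528 and 539 on day 14 and 263 and 119 on day 28. S100a8 and S100a9 made up most of that sum, and Mpo, Camp and Ltf were at most at 0.560 FPKM. The 8 dendritic cell markers summed to at most 15.2 FPKM on day 5, 28.2 and 12.5 on day 14 and 21.9 and 32.6 on day 28. Ccr7 was the largest part in every library. It was the 1 dendritic cell marker called higher on day 28 than on day 5 (log2 1.43, edgeR adjusted p = 0.0400), against 7.74% of all genes. In the fit 7 of the 8 were higher and 1 lower. Endothelial markers, 5 genes, summed to 14.6 to 26.9 FPKM on day 5, 14.0 and 7.35 on day 14 and 6.86 and 3.75 on day 28. Pecam1 and Kdr made up most of that sum and were called lower on day 28 than on day 5, Cdh5 was not called (log2 -0.09), and Tek, at 0 to 0.267 FPKM, was called higher (edgeR adjusted p = 0.0208). The part of these markers and cells in the values below was not tested. In sorted bulk RNA, fewer cells of a type and less RNA per cell cannot be told apart.

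The catalytic genes are spread over several chromosomes, apart from one close group (GRCm38, GENCODE annotation). Psmb9 lies at chr17:34181987-34187764 on the minus strand and Psmb8 at chr17:34197721-34201454 on the plus strand, inside the MHC class II region. They alternate there with Tap1 (chr17:34187553-34197225) and Tap2 (chr17:34203527-34216321), which encode the transporter that carries proteasome products to class I molecules, so that 4 genes of the same pathway fill 34335 bases. The spans of Psmb9 and Tap1 overlap at their 5′ ends. Annotated spans also overlap for Psmb8 and Tap2 with Gm20496, for Psmb10 with Gm16156 and for Psmb7 with Nek6. Whether the counting used strand is not given in the sources used here, so fragments in these overlaps are uncertain. Psmb10 lies at chr8:105935735-105938444, Psmb5 at chr14:54614119-54618022, Psmb6 at chr11:70525367-70527858 and Psmb7 at chr2:38588036-38644087. Processed copies of Psmb5, Psmb6, Psmb7 and Psme2 are annotated elsewhere in the genome, and how multiply mapped reads were shared is likewise not given.

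Short sequence patterns, 3 in all, were searched on both strands in the 250 bases before the annotated start of each gene in RefSeq's promoter table (GRCm38.p6), which had an entry for 40 of the 48 genes and none for Psmb7. The GAS pattern TTCNNNGAA, known from interferon-gamma-induced genes, was found in 2 of the 40, Psmb8 and Psmg1, against 7.02% of 32851 promoters. The antioxidant response core TGACNNNGC was found in 5, namely Psmb5, Psmb6, Psmc6, Psmd12 and Psmd9, against 10.2% of all promoters. The core of the interferon-stimulated response element (GAAA, 2 bases of any kind, and GAAA again) was found in Psmb3, Psmd4 and Psmd9, against 2.98%. The promoters of Psmb5, Psmb6 and Psmb8 each held 1 of the 3 patterns, whereas that of Psmd9 held 2. These 3 stretches of 30 bases are shown because the genes belong to the catalytic pairs compared below. Each is printed 5′ to 3′ on the gene's strand with the match in capitals, which begins 97, 9 and 47 bases before the RefSeq start, respectively. The lines give chr17:34198088-34198117 on the plus strand, chr11:70525327-70525356 on the plus strand and chr14:54618023-54618052 on the minus strand. The Psmb8 stretch lies within the gene's annotated span in GENCODE. A match is a description of the letters and no proof of a site in use.
Psmb8: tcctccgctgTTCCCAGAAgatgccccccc
Psmb6: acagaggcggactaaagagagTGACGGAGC
Psmb5: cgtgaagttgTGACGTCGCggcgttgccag

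Proteasome transcripts were abundant in these cells. Together the 48 genes took 0.345% to 0.398% of the assigned fragments of a library. Of the 47 tested, 46 had a mean of at least 5 FPKM over the 7 libraries, a level reached by 58.8% of all tested genes. The median proteasome gene had a mean of 63.4 FPKM and lay above 89.9% of tested genes, whose own median was 7.71 FPKM. In every library, 25 of the genes were at 50 FPKM or more. Psmb6, the constitutive subunit with caspase-like activity, had the highest level of any member, up to 217 FPKM on day 5. The median of the gene medians was 51.0 FPKM over the 8 lid subunits of the cap and 90.2 FPKM over the 7 alpha subunits of the core.

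Tissue-restricted forms were near or below detection. Psmb11, the thymus-specific catalytic subunit, had 2 to 6 fragments per library (0.0192 to 0.0770 FPKM) and was not tested. Psma8, which replaces an alpha subunit in germ cells, had 10 to 37 fragments and 0.370 to 1.29 FPKM. Its difference between days 28 and 5 had a 95% interval from -1.09 to 1.54 on the log2 scale, which holds a 2-fold difference in either direction.

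Few of the 47 genes passed the test in any comparison. The edgeR quasi-likelihood test, with p values adjusted by Benjamini-Hochberg over all 12858 genes, called 0 members between days 14 and 5, where 4.78% of all tested genes were called, 2.84% higher and 1.94% lower. An unadjusted p under 0.05 was reached by 4 members, against 24% of all genes. DESeq2 also called 0 members, against 10.8% of all genes, and so did limma, against 1.96%.

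In the comparison of days 28 and 14 edgeR again called 0 members, against 0.0622% of all genes, 0.0311% in each direction. There 3 members had an unadjusted p under 0.05, against 12.2% of all genes, and they were Psmb8, Psmb9 and Psmb10, all lower on day 28. DESeq2 called 2 of these, Psmb8 and Psmb9, against 2.69% of all genes, and limma called 0 members and 0 genes in all.

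Day 28 against day 5 gave 1 member called higher, Psmd5, and 0 lower, against 15.2% of all genes, 7.74% higher and 7.51% lower. Unadjusted p values under 0.05 numbered 9 here, against 31.5% of all genes, and 8 of these 9 members were lower on day 28. DESeq2 called 3 members, Psmb8 and Psmb9 lower and Psmd5 higher, against 19.3% of all genes, and limma called Psmd5 alone, against 14%.

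Most members moved little. For days 28 and 5 the median log2 difference of the 47 genes was -0.10, against 0.03 over all genes tested, and 34 of the 47 were lower. Between days 14 and 5 the median was -0.11, against 0.03, with 36 lower, and between days 28 and 14 it was 0.03, against 0.01, with 21 lower. The 46 genes with a mean of at least 5 FPKM differed between their highest and lowest library by a median of 1.35-fold, and 38 of them by less than 1.5-fold, as did 53.4% of all genes at that level. Psmd13, a lid subunit, was the steadiest at 1.11-fold, and Psmb9 varied most at 2.2-fold.

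Groups whose libraries did not overlap were counted as well. Between days 14 and 5, 21 members had all day 14 libraries below all day 5 libraries and 3 had them above, against 21.4% and 21.9% of all genes. For days 28 and 14 the counts were 12 below and 5 above, against 19.7% and 19.3%, and for days 28 and 5 they were 19 below and 3 above, against 25.6% and 26%. The comparisons with day 5 share its libraries.

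Both day 28 libraries lay below all 5 earlier libraries for 11 of the 47 members (23.4%), against 10.6% of all genes tested, and above all of them for 0 members, against 10.8%. The 11 were the 3 immunoproteasome subunits, the beta subunit Psmb4, the ATPases Psmc2, Psmc3 and Psmc4, the ubiquitin receptor Psmd4, the lid subunits Psmd3 and Psmd8, and the activator subunit Psme1.

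**Figure D1:**
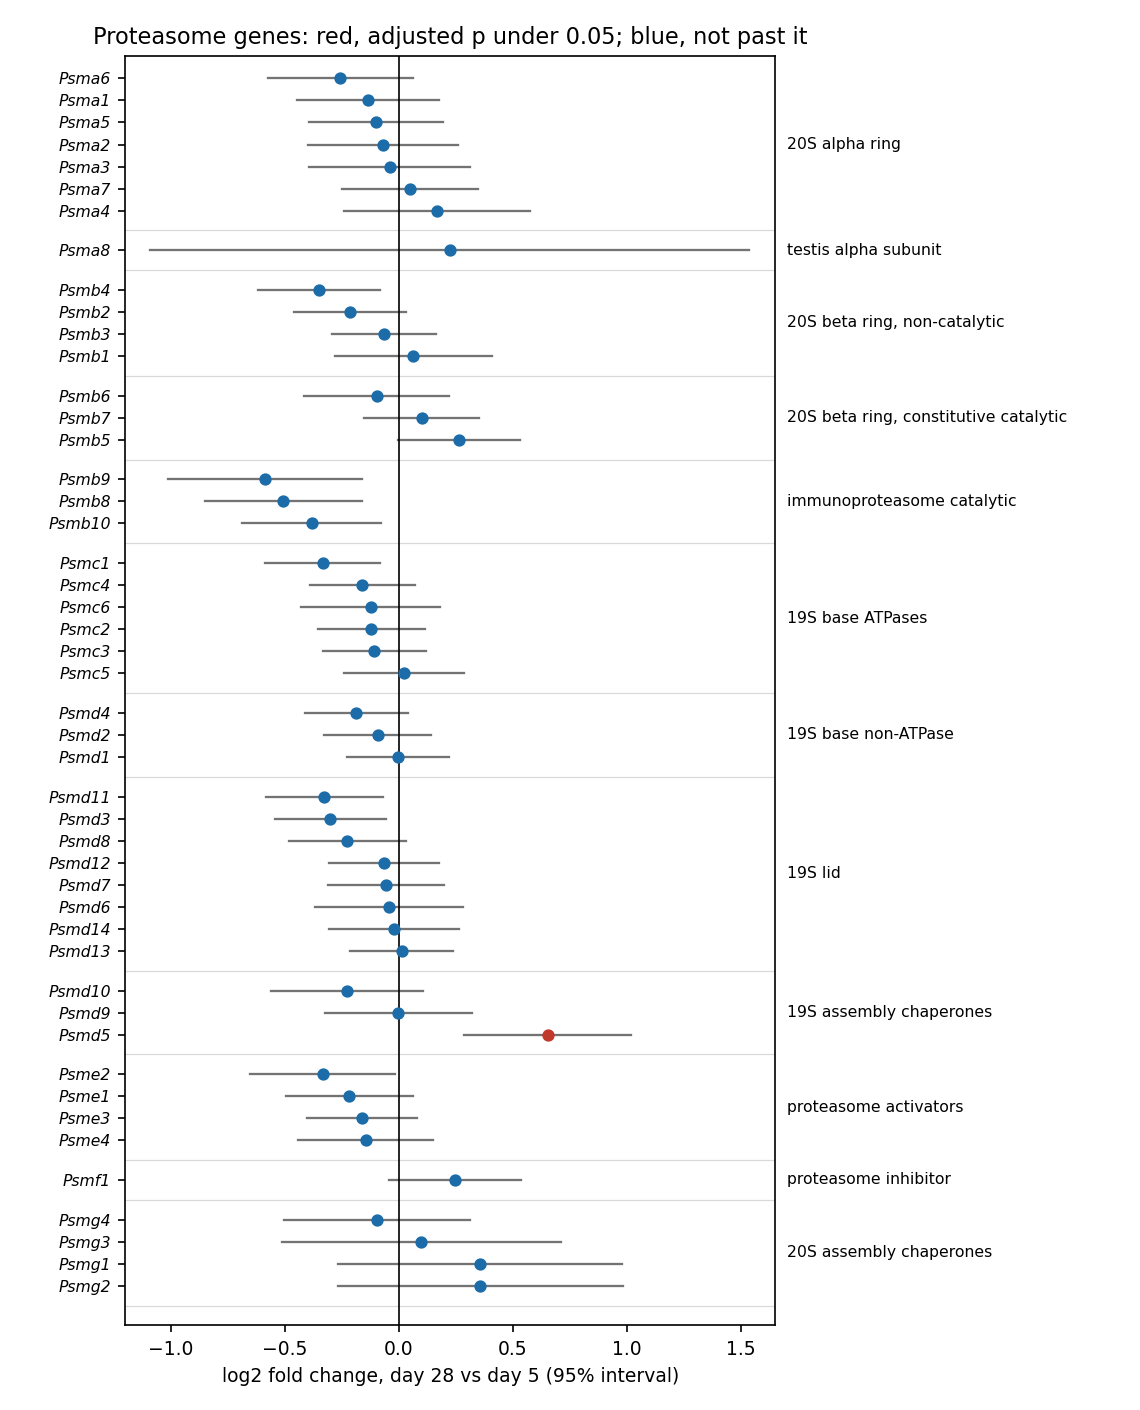
The log2 fold change between days 28 and 5 (horizontal axis) is drawn for the 47 tested proteasome genes, grouped by role, with lines for approximate 95% intervals. Psmd5 is the 1 gene past an adjusted p of 0.05 and lies to the right at 0.65, while the 3 immunoproteasome subunits lie to the left between -0.38 and -0.59.

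The immunoproteasome subunits had their lowest levels on day 28. Psmb8, the immunoproteasome subunit with chymotrypsin-like activity, was at 127, 119 and 111 FPKM on day 5, at 149 and 104 FPKM on day 14 and at 81.5 and 84.7 FPKM on day 28. The means were 119 ± 8.20 (SD, n = 3), 127 ± 32.1 (SD, n = 2) and 83.1 ± 2.21 FPKM (SD, n = 2). Both day 28 libraries lay below every earlier library, whereas the libraries of days 5 and 14 overlapped. The fold change between days 28 and 5 was 0.704 (log2 -0.51, SE 0.15, 95% interval -0.85 to -0.16) and missed the threshold (edgeR adjusted p = 0.0539). Against day 14 it was 0.658 (log2 -0.60, SE 0.17, edgeR adjusted p = 0.192).

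Psmb9, which takes the place of Psmb6, was the lowest of the 3 in most libraries. It was measured at 62.4, 47.3 and 48.5 FPKM on day 5, 72.8 and 49.3 FPKM on day 14 and 36.3 and 33.1 FPKM on day 28. Again both day 28 libraries lay below all others, and those of days 5 and 14 overlapped. The fold change from day 5 to day 28 was 0.666 (log2 -0.59, SE 0.19, 95% interval -1.01 to -0.16, edgeR adjusted p = 0.0668), and between days 28 and 14 it was 0.573 (log2 -0.80, SE 0.21, edgeR adjusted p = 0.164).

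Psmb10, the counterpart of Psmb7 with trypsin-like activity, was likewise lowest on day 28, over a narrower range. Its levels were 71.8, 61.9 and 60.6 FPKM on day 5, 71.3 and 55.6 FPKM on day 14 and 50.5 and 48.0 FPKM on day 28, so that the day 28 libraries were below all others. The difference was -0.38 against day 5 (log2, SE 0.14, edgeR adjusted p = 0.0858) and -0.36 against day 14 (SE 0.15, edgeR adjusted p = 0.371).

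Whether the 3 subunits passed the threshold depended on the libraries and the tool. DESeq2 called Psmb8 and Psmb9 lower on day 28 than on day 5 (adjusted p = 0.0185 and 0.0305) and did not call Psmb10 (adjusted p = 0.0724). In an edgeR fit of days 5 and 28 alone all 3 subunits were called lower on day 28. That fit called 2778 of 12594 genes, against 1960 of 12858 with all libraries. With either day 14 library left out, which leaves that day 1 library, the log2 differences between days 28 and 5 ranged from -0.59 to -0.38. They were close to those of the fit with all libraries. Without day 14 replicate 2, the higher of the day 14 pair being left alone, the log2 differences between days 28 and 14 were -0.84 for Psmb8 and -1.06 for Psmb9. Without 1 of the day 5 libraries, 820 to 967 of all genes were called between days 28 and 5, against 1960 with all libraries. Leaving out any library of day 5 or day 28 gave no call for any of the 3.

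**Figure D2:**
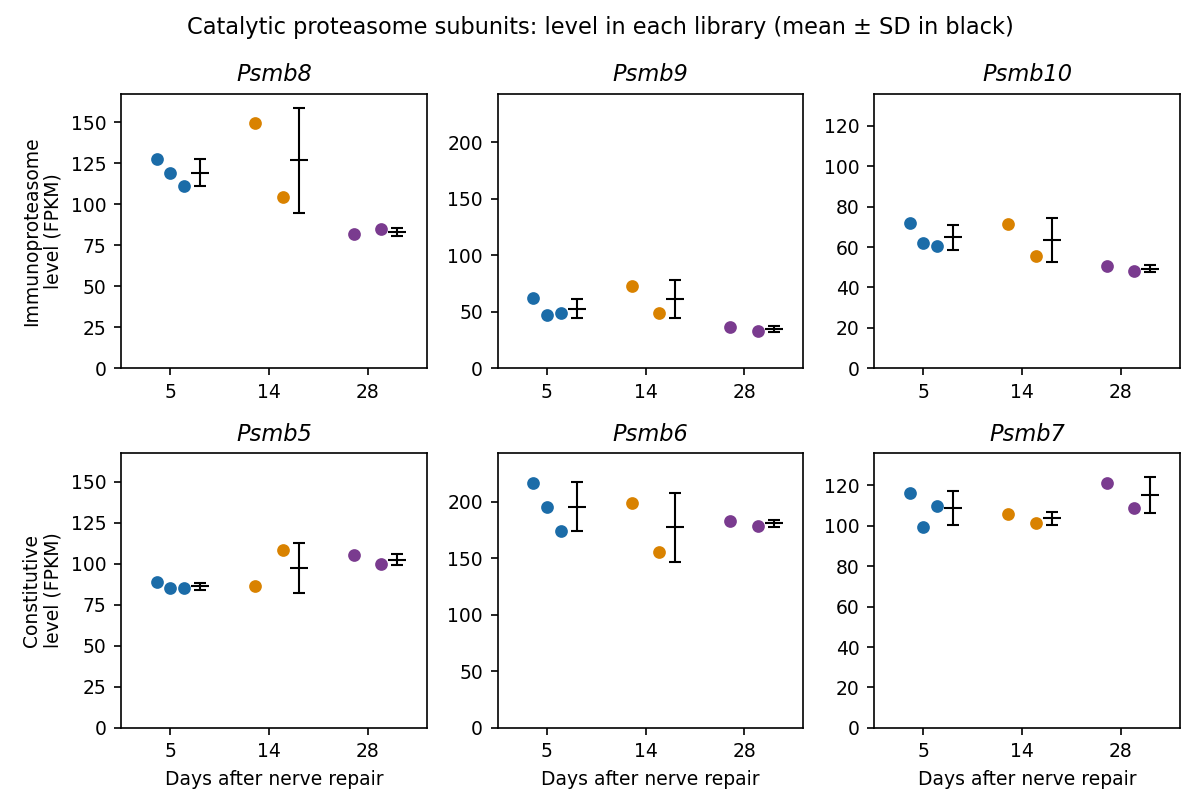
Levels in FPKM (vertical axes, from 0) are plotted for each library against days after repair, with the immunoproteasome subunits above and their constitutive counterparts below on the same scale, points for libraries and black marks for mean and SD. For Psmb8, Psmb9 and Psmb10 both day 28 points lie under all others, and for Psmb5, Psmb6 and Psmb7 they do not.

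The constitutive subunits were not lowest on day 28 in both libraries. Psmb5, the chymotrypsin-like subunit, was at 88.6, 85.0 and 85.1 FPKM on day 5, 86.7 and 108 FPKM on day 14 and 105 and 100.02 FPKM on day 28. Both day 28 libraries were above all day 5 libraries, with a log2 difference of 0.26 (SE 0.12, 95% interval -0.00 to 0.53) that missed the threshold (edgeR adjusted p = 0.165). Psmb6 was at 217, 196 and 174 FPKM on day 5, 199 and 155 FPKM on day 14 and 183 and 179 FPKM on day 28, and its days overlapped. Psmb7, the trypsin-like subunit, was at 116, 99.6 and 109.8 FPKM on day 5, 106 and 101 FPKM on day 14 and 121 and 109 FPKM on day 28. The intervals of the day 28 to day 5 differences were -0.41 to 0.22 for Psmb6 and -0.15 to 0.35 for Psmb7 on the log2 scale, so changes of 2-fold lay outside them.

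Ratios within a library compare the members of a pair free of library scaling. For Psmb8 and Psmb5 the level of the immunoproteasome subunit was 1.44, 1.40 and 1.30 times that of its counterpart on day 5 and 1.72 and 0.962 times on day 14. On day 28 it was 0.776 and 0.847 times. Psmb8 thus exceeded Psmb5 in every day 5 library and in day 14 replicate 1, and was the lower of the pair in day 14 replicate 2 and both day 28 libraries. As a share of the pair's summed FPKM, Psmb8 averaged 58.0% ± 1.23 (SD, n = 3) on day 5, 56.2% ± 10.1 (SD, n = 2) on day 14 and 44.8% ± 1.53 (SD, n = 2) on day 28.

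Psmb9 stayed the smaller partner of Psmb6 at all times. Its share was 22.3%, 19.5% and 21.8% on day 5, 26.8% and 24.1% on day 14 and 16.6% and 15.7% on day 28. The 3 days did not overlap, and day 14 was the highest. Psmb10 made up 38.2%, 38.3% and 35.6% of its pair with Psmb7 on day 5, 40.2% and 35.4% on day 14 and 29.4% and 30.6% on day 28. In all 3 pairs both day 28 libraries were below each of the 5 earlier libraries.

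The log2 ratios were tested over the 3 days by an exact two-sided permutation of the 7 libraries, which has 210 arrangements. For Psmb9 to Psmb6 the exact p was 0.00952, the smallest these arrangements allow, and 0.0286 after Benjamini-Hochberg adjustment over the 3 pairs. For Psmb8 to Psmb5 the exact p was 0.124 (adjusted 0.124) and for Psmb10 to Psmb7 it was 0.0952 (adjusted 0.124). From day 5 to day 28 the mean log2 ratio differed by -0.77, -0.48 and -0.48 for Psmb8, Psmb9 and Psmb10 to their partners, and between days 28 and 14 by -0.67, -0.82 and -0.50. Compared in pairs of days, the exact test cannot go below 0.1 for 3 libraries against 2 or 0.333 for 2 against 2, and it reached these limits between day 28 and both other days for all 3 pairs. The 2 day 14 log2 ratios of Psmb8 to Psmb5 were 0.79, above all day 5 libraries, and -0.06, between those of days 5 and 28. With either of them left out, day 14 has 1 library and no spread of its own. The test without a day 14 library therefore cannot decide whether this ratio differs between days. Without any 1 of the day 5 libraries the smallest possible p is 0.0667, and Psmb9 to Psmb6 was at that limit.

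**Figure D3:**
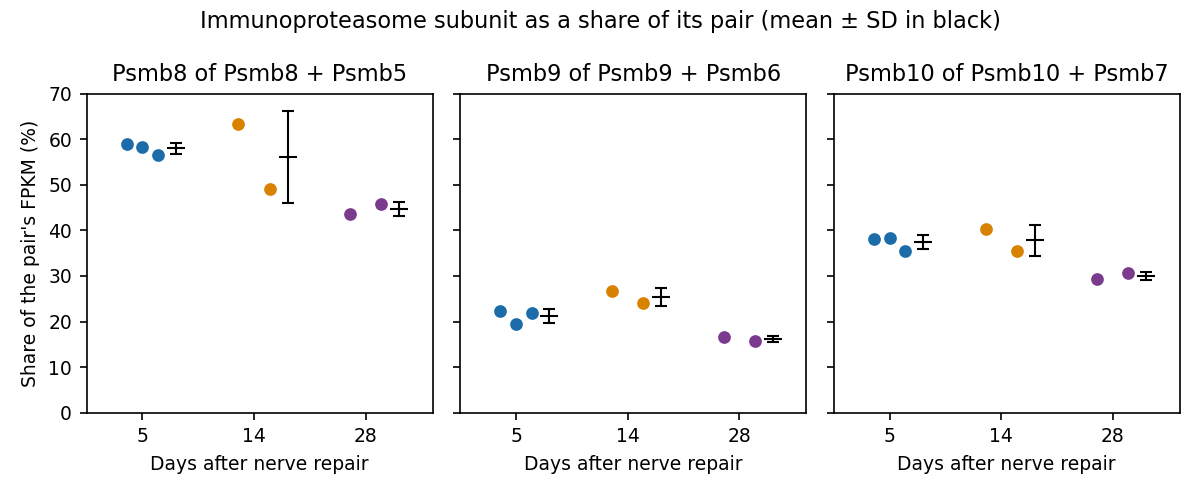
The share of each immunoproteasome subunit in the summed FPKM of its pair (vertical axis, percent) is plotted for every library against days after repair, with mean and SD in black. Day 28 points are the lowest in all 3 panels, and the day 14 points of Psmb8 lie far apart at 63.3% and 49.0%.

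In the rest of the 20S core, no alpha subunit was called in any comparison. Psma1 to Psma7 form the outer rings that gate the barrel. Their log2 differences between days 28 and 5 ran from -0.26 for Psma6 to 0.16 for Psma4, with a median of -0.07. All 7 were lower on day 14 than on day 5 in the fit, by a median of -0.18, and for 5 of them the libraries did not overlap, against 21.4% of all genes for that rule. The spread within day 28 was wide for these genes. Psma4 was at 77.1, 83.0 and 76.7 FPKM on day 5, 71.3 and 78.3 FPKM on day 14 and 108 and 66.3 FPKM on day 28, and Psma6 at 158, 143 and 139.8, 127 and 118, and 139.5 and 104 FPKM.

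All 7 alpha subunits were higher in day 28 replicate 1 than in replicate 2, by 0.39 to 0.71 on the log2 scale with a median of 0.44. Over all tested members 34 of 47 (72.3%) were higher in replicate 1, with a median of 0.12, while over all genes tested the share was 49.5% and the median -0.00. Replicate 1 of day 28 was also the deepest library. What this difference between replicates comes from was not tested. On day 14 the alpha subunits did not split in this way, with 3 of 7 higher in replicate 1 and a median of -0.03.

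The beta subunits without active sites are Psmb1, Psmb2, Psmb3 and Psmb4, of which Psmb4 had the lowest difference between days 28 and 5. Psmb4 was at 208, 184 and 188 FPKM on day 5, 188 and 164 FPKM on day 14 and 141 and 159 FPKM on day 28. Both day 28 libraries were below all others. The log2 difference from day 5 was -0.35 (SE 0.12, edgeR adjusted p = 0.0772). It passed the threshold in a fit of days 5 and 28 alone, as did 2778 of 12594 genes, against 1960 of 12858 with all libraries. Psmb1 was the other extreme of the group, at 0.06 (SE 0.15), with 122 and 84.1 FPKM in the day 28 libraries.

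**Figure D4:**
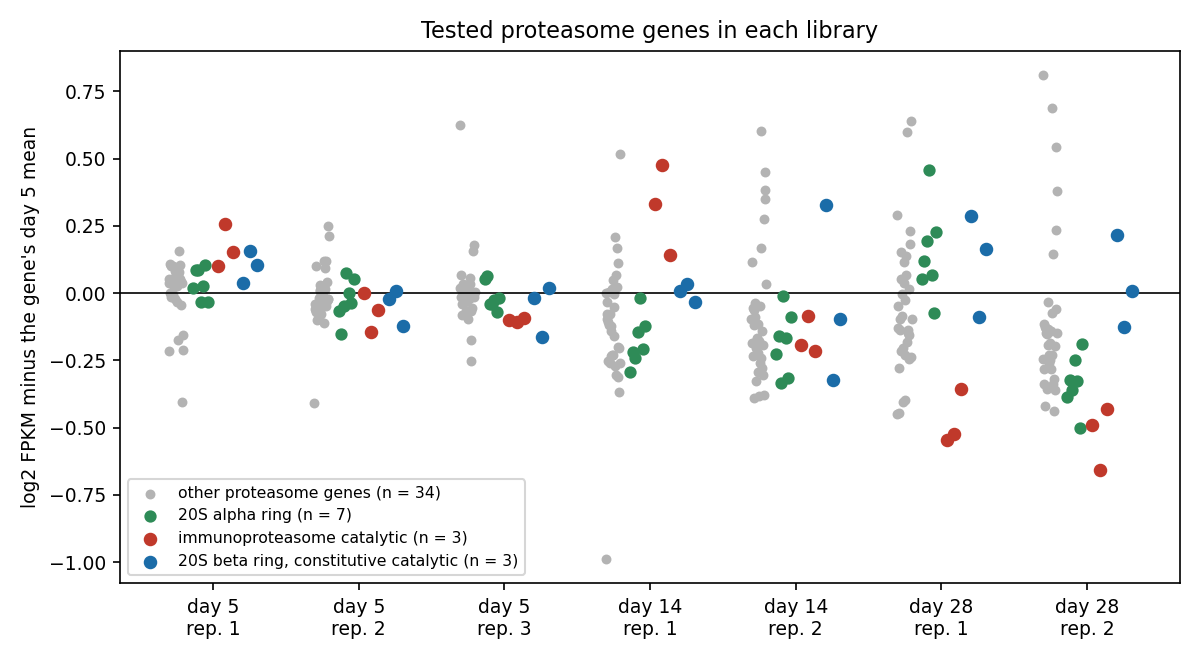
For each of the 47 tested genes, log2 FPKM minus the mean of the 3 day 5 libraries is plotted (vertical axis) for every library. The 3 immunoproteasome subunits (red) lie below 0 in both day 28 libraries and above 0 in day 14 replicate 1, and the 7 alpha subunits (green) are higher in day 28 replicate 1 than in replicate 2.

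Among the 19S cap genes, the ATPases Psmc1 to Psmc6, which form the ring that unfolds substrates, gave no call. Psmc1 was lowest against day 5, at 81.0, 87.7 and 77.3 FPKM on day 5, 68.6 and 62.5 FPKM on day 14 and 67.5 and 61.2 FPKM on day 28. Both later days lay below all day 5 libraries. The log2 differences were -0.31 on day 14 (SE 0.11, edgeR adjusted p = 0.130) and -0.34 on day 28 (SE 0.11, edgeR adjusted p = 0.0735). Psmc5 lay at the other end at 0.02 (SE 0.12).

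The non-ATPase subunits of the base, Psmd1, Psmd2 and Psmd4, ranged from -0.00 for Psmd1 to -0.19 for Psmd4 between days 28 and 5. Psmd1, a large scaffold subunit, was at 43.8, 43.4 and 44.7 FPKM on day 5, 37.4 and 38.1 FPKM on day 14 and 43.9 and 43.0 FPKM on day 28. Day 14 was below every library of the other days, with log2 -0.21 against day 5 (SE 0.10, edgeR adjusted p = 0.232). Over the 8 lid subunits the median difference between days 28 and 5 was -0.06, from -0.33 for Psmd11 (SE 0.11, edgeR adjusted p = 0.0831) to 0.01 for Psmd13 (SE 0.10). Psmd14, the deubiquitinase that removes ubiquitin chains from substrates at the cap, was at 63.2, 58.2 and 59.2 FPKM on day 5, 49.9 and 51.0 FPKM on day 14 and 66.1 and 51.3 FPKM on day 28. All 8 lid subunits had intervals within 2-fold in each direction for this comparison.

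Psmd5 was the 1 member called. It encodes an assembly chaperone that binds the ATPase ring of the cap before the cap is complete and is no part of the finished proteasome. The gene lies at chr2:34849734-34874968 on the minus strand, where its span overlaps that of Cutal, so fragments in the overlap are uncertain. Psmd5 was at 6.67, 8.15 and 7.81 FPKM on day 5, 8.67 and 11.4 FPKM on day 14 and 11.4 and 12.1 FPKM on day 28. Both later days were above all day 5 libraries, and days 14 and 28 overlapped. Psmd5 rose 1.57-fold between days 5 and 28 (log2 0.65, SE 0.16, 95% interval 0.29 to 1.02, edgeR adjusted p = 0.0278), with 289 to 810 fragments per library. Against day 5 the log2 difference of day 14 was 0.43 (SE 0.16, edgeR adjusted p = 0.156), and 0.61 without day 14 replicate 1. The day 28 call was lost without any 1 of the day 5 or day 28 libraries, where the log2 difference stayed between 0.57 and 0.71 and the edgeR adjusted p ran from 0.0630 to 0.116. DESeq2 and limma also called it.

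The other chaperones of cap assembly were not called. Psmd9 was at 9.05, 7.95 and 8.78 FPKM on day 5, 8.99 and 9.63 FPKM on day 14 and 7.55 and 9.50 FPKM on day 28, a log2 difference of -0.00 (SE 0.14). Psmd10, also known as gankyrin, was at 26.5, 25.4 and 19.96 FPKM on day 5, 19.2 and 19.6 FPKM on day 14 and 21.6 and 18.8 FPKM on day 28, a log2 difference of -0.23 (SE 0.15, edgeR adjusted p = 0.324). For both genes the libraries of days 28 and 5 overlapped.

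The activators that open the core without the 19S cap gave no call. Psme1 and Psme2, the subunits of the interferon-inducible PA28 ring, are neighbours at chr14:55578123-55581529 and chr14:55587441-55591113. Psme1 was at 139, 136 and 129 FPKM on day 5, 151 and 122 FPKM on day 14 and 121 and 108 FPKM on day 28, with log2 -0.22 between days 28 and 5 (SE 0.12, edgeR adjusted p = 0.259). Psme2 was at 137, 143 and 117, 134 and 107, and 111 and 97.2 FPKM, with log2 -0.33 (SE 0.14, edgeR adjusted p = 0.142). For both genes the day 28 libraries were below all day 5 libraries. Day 14 replicate 1 exceeded replicate 2 for both, as it did for the immunoproteasome subunits.

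Psme3, which forms a nuclear activator ring, was at 39.0, 35.1 and 35.0 FPKM on day 5, 29.2 and 31.8 FPKM on day 14 and 32.6 and 31.7 FPKM on day 28. Psme4, the large PA200 activator, was at 16.0, 16.995 and 16.6, 14.4 and 12.7, and 16.7 and 12.9 FPKM. Their day 28 to day 5 differences were -0.16 (SE 0.11, edgeR adjusted p = 0.329) and -0.15 (SE 0.13, edgeR adjusted p = 0.488). Psmf1, which encodes the inhibitor PI31, was at 4.97, 4.74 and 4.79 FPKM on day 5, 5.22 and 5.85 FPKM on day 14 and 5.67 and 5.69 FPKM on day 28. Both later days lay above day 5, with a log2 difference of 0.25 on day 28 (SE 0.13, edgeR adjusted p = 0.226).

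The chaperones of 20S assembly, Psmg1 to Psmg4, were expressed at a lower level and with more scatter. Psmg2, which guides the alpha ring together with Psmg1, was at 7.32, 7.02 and 7.07 FPKM on day 5, 5.54 and 9.09 FPKM on day 14 and 11.1 and 6.84 FPKM on day 28. Day 28 replicate 1 was the highest of these and the days overlapped. The log2 difference from day 5 to day 28 was 0.36 (SE 0.28, 95% interval -0.27 to 0.98), as it was for Psmg1, and that of Psmg4 was the lowest of the group at -0.10 (SE 0.18). Counts for Psmg1, Psmg2 and Psmg3 were as low as 76 to 88 fragments in a library, which limits what could be detected.

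Around the proteasome itself, 6 further lists of genes were described by their counts. Of 13 other proteasome parts and partners in the table, 1 was called between days 28 and 5, against 15.2% of all genes. This was Usp14, a deubiquitinase that docks on the cap, which rose to 19.3 and 15.9 FPKM from 12.7, 12.5 and 12.3 FPKM on day 5 (log2 0.51, SE 0.11, edgeR adjusted p = 0.0188). Pomp, the maturation factor of the core, was at 136 to 146 FPKM on day 5 and 131 and 124 FPKM on day 28 (log2 -0.12, SE 0.10, edgeR adjusted p = 0.448). Of the 5 regulators of proteasome transcription 0 were called, with 2 at an unadjusted p under 0.05, against 31.5% of all genes. Nfe2l1, the factor that raises proteasome genes when proteasomes fail, was at 42.1, 41.0 and 39.7 FPKM on day 5, 39.9 and 45.4 FPKM on day 14 and 38.7 and 43.0 FPKM on day 28. The 6 genes for ubiquitin and its activating enzymes and the 8 cytosolic peptidases likewise had 0 calls between days 28 and 5. In each list 2 had an unadjusted p under 0.05, against 31.5% of all genes.

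Genes of class I peptide loading and of the interferon-gamma response did give calls. Between days 5 and 28, 4 of 11 class I loading genes were called lower and 0 higher, against 7.51% and 7.74% of all genes. In the fit 9 were lower and 2 higher, with a median log2 difference of -0.33. The 4 called were Tap1, H2-K1, H2-D1 and B2m. Tap1, the neighbour of Psmb9 and Psmb8, was at 33.7, 37.4 and 30.6 FPKM on day 5, 50.8 and 28.2 FPKM on day 14 and 19.9 and 17.4 FPKM on day 28 (log2 -0.85 between days 28 and 5, SE 0.22, edgeR adjusted p = 0.0314). Tap2 was at 28.7 to 31.8 FPKM on day 5, 36.7 and 27.9 FPKM on day 14 and 23.3 and 23.8 FPKM on day 28, and missed the threshold (log2 -0.33, SE 0.13, edgeR adjusted p = 0.120). All 4 genes from Psmb9 to Tap2 thus had their lowest levels in the day 28 libraries, 1 of them past the threshold. H2-K1, a class I heavy chain, fell by 0.76 on the log2 scale (SE 0.17, edgeR adjusted p = 0.0180) and B2m, the light chain, by 0.66 (SE 0.18, edgeR adjusted p = 0.0398).

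Of 16 interferon-gamma genes, 8 were called lower and 1 higher on day 28 than day 5, against 7.51% and 7.74% of all genes. In the fit 14 were lower and 2 higher, with a median log2 difference of -0.84. Igtp and Irgm1, interferon-induced GTPases, fell by 1.705 (SE 0.27, edgeR adjusted p = 0.00511) and 1.33 (SE 0.27, edgeR adjusted p = 0.0137). Nlrc5, the activator of class I genes, fell by 1.11 (SE 0.22, edgeR adjusted p = 0.0129). Irf1 was at 143, 108 and 87.0 FPKM on day 5 and 77.3 and 84.9 FPKM on day 28 (log2 -0.46, SE 0.24, edgeR adjusted p = 0.222). The gene called higher was the chemokine Cxcl9, at 0.0169 to 0.212 FPKM on day 5 and 1.73 and 0.615 FPKM on day 28 (log2 3.05, SE 0.89, edgeR adjusted p = 0.0475). Its level was low in all libraries and rested on as few as 1 fragment on day 5. Between days 14 and 5, and between days 28 and 14, edgeR called 0 of the 59 genes of the 6 lists, against 4.78% and 0.0622% of all genes. DESeq2 called 3 and 8 of them, against 10.8% and 2.69%. In the comparison of days 28 and 14, 11 of the interferon-gamma genes and 6 of the class I loading genes had an unadjusted p under 0.05, against 12.2% of all genes and all lower on day 28, and between days 14 and 5 the counts were 1 and 0, against 24%.

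The day 14 libraries differed from each other along these genes. The 3 immunoproteasome subunits were higher in replicate 1 by 0.36 to 0.56 on the log2 scale, all 16 interferon-gamma response genes were higher by a median of 0.88, and 10 of 11 class I loading genes by a median of 0.37. Over all genes tested 50.6% were higher in replicate 1, with a median of 0.01. Fragments of Ifng itself were found in day 14 replicate 1 alone, where there were 9, and in the other 6 libraries there were 0. That replicate also had the highest sums of fibroblast markers (222 FPKM), T and NK cell markers (1.54 FPKM) and 5 B cell markers (10.8 FPKM). Whether these values are linked was not tested. The summed level of the 3 immunoproteasome subunits was 262, 228 and 220.2 FPKM on day 5, 294 and 209 FPKM on day 14 and 168 and 166 FPKM on day 28. For the 16 interferon-gamma genes it was 592, 519 and 428 FPKM, then 598 and 347 FPKM, then 325 and 336 FPKM. Both sums were highest in day 14 replicate 1, and the constitutive sum was not, at 391.7 FPKM there against 365 to 422 FPKM in all libraries.

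**Figure D5:**
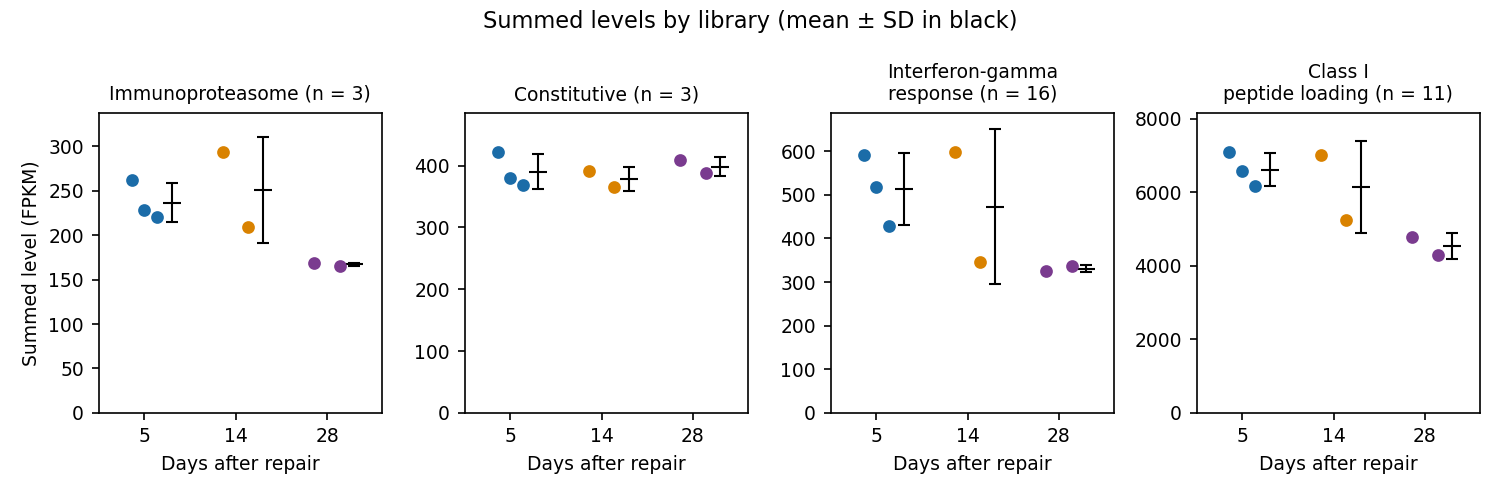
Summed FPKM (vertical axes, from 0) of the 3 immunoproteasome subunits, the 3 constitutive subunits, 16 interferon-gamma response genes and 11 class I loading genes is plotted for each library against days after repair, with mean and SD in black. In the panels of the immunoproteasome and interferon-gamma genes day 14 replicate 1 is the highest point and both day 28 points are below all others, while the constitutive subunits stay between 365 and 422 FPKM.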

How the data were processed

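RNASeq of sorted macrophages was re-analysed in 7 libraries (day 5, n = 3; day 14, n = 2; day 28, n = 2). According to the submitters' processing notes, the authors used cutadapt 1.8 on the single-end reads, TopHat2 2.0.13 with the UCSC mm10 genome, and Cuffdiff 2.2.1 for gene levels. The deposited values are expected counts (fragments per gene before scaling), a scaled signal with 1 factor per library, and FPKM, which the authors normalized for length and library size.

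Expected counts were rounded and fitted with edgeR 4.0.16 in R 4.3.3 (TMM, expression filter by day, all 7 libraries, time point as the only factor, quasi-likelihood F test). P values were adjusted over 12858 genes and called under 0.05. Intervals use the estimate's SE. The test was checked on simulated counts with planted changes of 2-fold or more, so the check does not cover smaller differences. Ratios used FPKM + 0.1. DESeq2 1.42.0, limma 3.58.1 on log2(FPKM + 1) and log2(FPKM + 0.1), other scaling, no filter, pairs of days, a replicate block, a threshold of 0.01 and leaving out each library were alternatives. The tests judge differences against the spread between libraries, and whether a library holds 1 mouse or several was not established. Depth was 18027190 to 35247116 fragments. Detection used a floor of 3 fragments, which covers counting error only. Python 3.11.15, numpy 2.4.6, pandas 2.3.3, scipy 1.17.1 and matplotlib 3.10.9 were used.

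Members, lists and the rule for named genes (catalytic subunits, activators, called members, the extremes of each role group, undetected members and set pathway genes) were chosen with earlier results of these data known. Paaf1, Ly6g and Trbc2 were not found in the table by these symbols.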

Additional observations from a re-analysis of the deposited data

How the results depend on the processing

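The count of proteasome genes called between days 28 and 5 was 1 with all libraries, against 1960 of 12858 genes. It was 3 by DESeq2, against 2485 of 12858 genes, and 3 without the expression filter, against 2466 of 17299. A fit of the 2 days alone gave 5, against 2778 of 12594. Without any 1 library of day 5 the count was 0, against 820 to 967 genes. At an adjusted p under 0.01 it was 0, for which no share of all genes is given. Between days 28 and 14 the count of 0, against 8 of 12858 genes, became 2 by DESeq2, against 346. Without the filter it was 2, against 390 of 17299. Without any 1 library of day 5 it was 0, against 0 genes. Between days 14 and 5 it was 0 with all libraries, against 614 of 12858 genes, and 0 by DESeq2, against 1392. Without any 1 library of day 5 it was also 0, against 52 to 106 genes. The genes called in the 6 other lists numbered 14 between days 28 and 5, 1 at 0.01 and 2 to 21 with 1 library left out, lowest without day 28 replicate 1. They numbered 8 by DESeq2 and without the filter and 0 to 16 with 1 library left out between days 28 and 14, and 3 by DESeq2, 4 without the filter and 0 to 8 with 1 library left out between days 14 and 5. Counts are not given here for fits in which 1 library of a day remained, because it was assumed to vary like the other days.

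The log2 ratio difference between days 28 and 5 ranged from -0.83 to -0.70 for Psmb8 to Psmb5, from -0.56 to -0.44 for Psmb9 to Psmb6 and from -0.53 to -0.44 for Psmb10 to Psmb7 with 1 library left out. These 3 differences and that of Psmd5 kept their direction under every alternative run. Among the catalytic subunits, activators and Psmf1, small differences that were not called in any setting changed sign in some: between days 14 and 5 for Psmb6, Psmb8, Psmb9, Psmb10, Psme1 and Psme2, between days 28 and 14 for Psmb5, Psmb6, Psme4 and Psmf1, and between days 28 and 5 for Psme4 (-0.35 to 0.02).

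Replicate numbers were shared between days, but neither the labels nor the methods say that a number links libraries, so the numbers were not taken as pairs. Deviations of same-numbered libraries correlated by -0.0538 to 0.175 over genes, and 8 of 12 best matches were to the same number. Since deviations were taken from each day's mean, the 2 libraries of day 14, and those of day 28, mirror each other. The matches are thus not independent and cannot decide on pairing. With the replicate block, 0 members and 7 genes of the other lists were called between days 28 and 5, against 735 of 12858 genes. Psmd5 then had an edgeR adjusted p of 0.0618. The log2 ratio differences were -0.81, -0.46 and -0.53, where the exact p cannot go below 0.167.

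Depth limits Psmb11, Psma8 and the Psmg genes most, and 2 libraries a day limit every comparison with days 14 and 28. Causes of these differences between settings were not tested.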
